A study of Mus musculus with 6 samples.

Results

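The genes described here run mitosis and cell division. They were chosen by name, 35 in all, and each was read from its brightest probe set among those that the platform annotation assigns to 1 gene symbol. Of the 35 genes, 34 had such a probe set above the filter on dim probe sets, out of 12859 genes measured that way. Ccnb1, the cyclin B1 gene, had no probe set named for it alone and was not analysed here. The tissue was parietal bone of the calvaria, the roof of the skull, from mice at postnatal day 10 kept in a minimal disease area. 13del-tg mice carry a Col10a1-13del transgene, a mutant form of the gene for collagen X, and are labelled as having bone overgrowth, whereas controls are their wild-type littermates. The promoter that drives the transgene, the number of founder lines and the sex of the animals are not given in the sources used here. Each genotype has 3 labelled biological replicates, and nothing says that the arrays were of pooled animals.

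Control 1 and 13del-tg 1 carried the same values at 45101 of 45101 probe sets. They are treated as a single array under 2 labels, called the shared array and shown apart, and 13del-tg 2 and 3 were compared with controls 2 and 3. Col10a1, the transgene's gene, had signals of 149.8 and 158.2 in the controls, 15689 and 11584 in 13del-tg and 152.2 on the shared array, which therefore went against its 13del-tg label. Signals are MAS5 intensities, which have no unit, and a trimmed mean of 500.003 on every array shows that they had been brought to one level. Of the 11 osteoblast markers 7 were measured, Col1a1 from 42618 to 48236 on the 4 compared arrays (the most abundant bone collagen chain). Xist, made from the inactive X chromosome, was at 15206 on 13del-tg 3 and between 29.9 and 84.5 on the others, and the Y-linked Eif2s3y was at 11.1 there and between 1652 and 1910 elsewhere, so 13del-tg 3 differed from all the others in these transcripts.

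Dividing cells switch on a common set of genes late in the cycle. Cyclin-dependent kinase 1 with cyclins A and B starts mitosis, Aurora and Polo kinases build the spindle, a checkpoint holds the chromosomes until all are attached, and the anaphase-promoting complex then marks securin and cyclin B for destruction so that the chromosomes part. In growing bone such genes are expressed by proliferating osteoprogenitors and periosteal cells and also from the blood precursors of the marrow spaces. Most of these genes are kept silent in resting cells through a short promoter element, the cell cycle genes homology region (CHR), bound by MuvB complexes, and many carry CCAAT boxes bound by the factor NF-Y.

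The promoters of the 4 members with the smallest p-values, Ube2c, Mki67, Cenpf and Aurka, and of the cyclin gene Ccnb2 are printed because they show the letters that most of the group shares. Each runs 5′ to 3′ in the direction of the gene, from 250 bases before to 50 bases after the RefSeq start (build GRCm38.p6). Capitals mark every CHR match (TTTGAA or TTCGAA on either strand, thus also TTCAAA) and every CCAAT box (CCAAT, or ATTGG for the other strand).
Ube2c, chr2:164769679-164769978, plus strand: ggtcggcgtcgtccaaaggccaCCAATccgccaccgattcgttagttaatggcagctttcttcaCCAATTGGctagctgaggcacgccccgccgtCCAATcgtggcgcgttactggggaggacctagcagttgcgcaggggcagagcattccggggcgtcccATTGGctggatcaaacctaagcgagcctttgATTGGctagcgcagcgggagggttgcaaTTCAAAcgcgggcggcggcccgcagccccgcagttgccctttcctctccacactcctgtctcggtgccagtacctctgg
Mki67, chr7:135716330-135716629, minus strand: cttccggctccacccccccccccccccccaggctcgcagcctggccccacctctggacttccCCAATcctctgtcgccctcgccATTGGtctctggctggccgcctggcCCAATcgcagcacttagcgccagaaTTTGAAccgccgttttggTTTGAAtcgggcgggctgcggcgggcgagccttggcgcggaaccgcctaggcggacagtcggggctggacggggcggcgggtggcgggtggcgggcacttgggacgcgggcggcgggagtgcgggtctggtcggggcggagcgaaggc
Cenpf, chr1:189688037-189688336, minus strand: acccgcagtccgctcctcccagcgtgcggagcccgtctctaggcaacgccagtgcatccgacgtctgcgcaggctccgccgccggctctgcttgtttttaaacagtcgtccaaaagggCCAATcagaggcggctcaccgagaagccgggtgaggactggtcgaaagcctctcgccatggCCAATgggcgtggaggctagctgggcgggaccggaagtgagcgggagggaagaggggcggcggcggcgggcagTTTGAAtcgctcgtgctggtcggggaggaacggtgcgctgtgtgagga
Aurka, chr2:172370521-172370820, minus strand: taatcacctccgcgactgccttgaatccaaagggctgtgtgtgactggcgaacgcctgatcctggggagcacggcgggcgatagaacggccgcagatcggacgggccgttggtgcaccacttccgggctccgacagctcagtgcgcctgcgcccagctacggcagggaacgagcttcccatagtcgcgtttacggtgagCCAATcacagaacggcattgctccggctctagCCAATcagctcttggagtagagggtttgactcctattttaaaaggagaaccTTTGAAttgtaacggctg
Ccnb2, chr9:70421505-70421804, minus strand: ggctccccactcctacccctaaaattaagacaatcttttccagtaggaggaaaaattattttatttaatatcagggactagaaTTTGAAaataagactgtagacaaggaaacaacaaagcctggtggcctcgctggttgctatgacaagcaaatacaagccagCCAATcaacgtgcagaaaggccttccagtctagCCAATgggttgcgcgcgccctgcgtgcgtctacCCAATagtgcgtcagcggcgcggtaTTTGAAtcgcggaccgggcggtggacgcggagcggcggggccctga

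Counting the start as base 1, a CHR match began at base 3 in Cenpf, 33 in Aurka and 5 in Ccnb2, and CCAAT boxes lay upstream of it. In Ccnb2 these boxes began 87, 54 and 21 bases before the start. Ube2c had its CHR match, read on the reverse strand, 29 bases before the start, with 6 CCAAT matches upstream. Mki67 carried CHR matches 116 and 98 bases before the start, with its CCAAT boxes farther upstream. RefSeq promoters were found for 31 of the 35 genes, and 23 of them (74.2%) held a CHR match, against 19.4% of 27025 promoters of the same length and 13.7% of the 10365 that belong to genes measured here. A CCAAT box was found in 24 (77.4%), against 37.9% of all promoters and 37.9% of those of measured genes. Both motifs were in 21 (67.7%), against 7.7% of all and 5.5% of measured genes, and in 41.5% of 82 other mitotic genes described further on. A CHR match began within 50 bases of the start in 21 of the 31 promoters, against 5.29% of all and 3.46% of measured genes. Matches to E2F sites (TTTCCCGC, TTTCGCGC, TTTGGCGC or TTTGCCGC, either strand) were in 2 of the 31 (6.45%), against 2.32% of all promoters and 4.1% of those of measured genes. TATAAA was in 1 (3.23%), that of Kif2c, against 14.2% of all and 7.6% of measured genes. Overlapping matches were each counted. Birc5, Mad2l1, Ncaph, Nusap1 and Pttg1 had neither a CHR match nor a CCAAT box in this window, which says only that these letters are not in it.

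**Figure D1:**
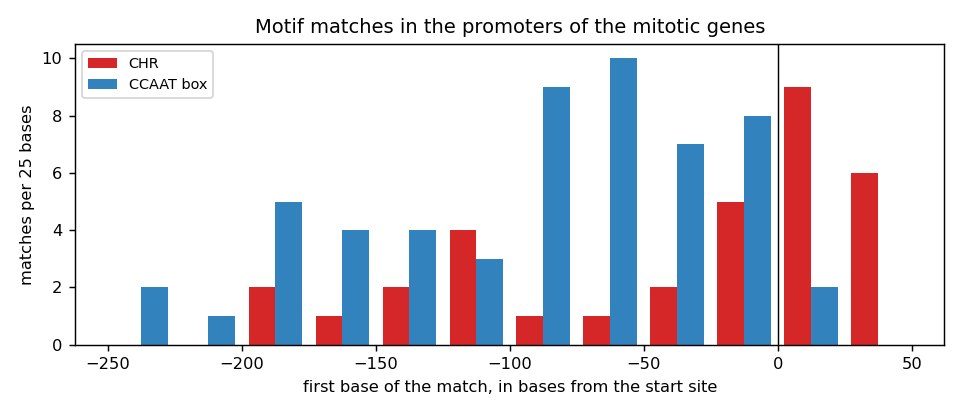
Histogram of where CHR and CCAAT box matches begin in 31 promoters of mitosis and cell division genes, in bases from the RefSeq start site (vertical line), counted per 25 bases. Of 33 CHR matches 22 began within 50 bases of the start, with a median of -15, while the 55 CCAAT matches had a median of -78.

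Every one of the 34 measured genes was lower in 13del-tg than in controls, against 58.8% of all genes. The differences were 1.27-fold to 2.32-fold, and no member passed the threshold on its own. The median log2 difference was -0.72, which is 60.8% of the control level, with quartiles of -0.92 and -0.49. The median over all 12859 genes was -0.07. Ube2c, Aurka, Mki67, Cenpf and Ttk were lower by more than 1 on the log2 scale, 5 of 34 genes, against 2.43% of all genes. Adjusted p-values by limma ran from 0.214 to 0.756, so 0 of 34 passed at 0.05, where 0.0467% of all genes passed with lower values and 0.0156% with higher. At an unadjusted p under 0.05 there were 22 of 34 with lower values, where 5.31% of all genes had them, and 0 of 34 with higher values, where 1.49% had them.

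For 31 of 34 genes the higher 13del-tg array was under the lower control, against 26.3% of all genes. The exceptions were Cdc20, Mad2l1 and Ect2. No member was near the filter, since the lowest signal on any array was 99.9 and the filter lay at 61.9. Each array's median over the members, set against the mean of the controls, was 0.04 in control 2, -0.04 in control 3, -0.80 in 13del-tg 2 and -0.57 in 13del-tg 3. Of the 34 genes 23 had their lowest 13del-tg value on 13del-tg 2 and 10 on 13del-tg 3, with Kif4 equal on both. The shared array had a median of -0.23. It lay between the groups for 16 genes, above both controls for 7, below both 13del-tg arrays for 1 and within the range of a group for 10.

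**Figure D2:**
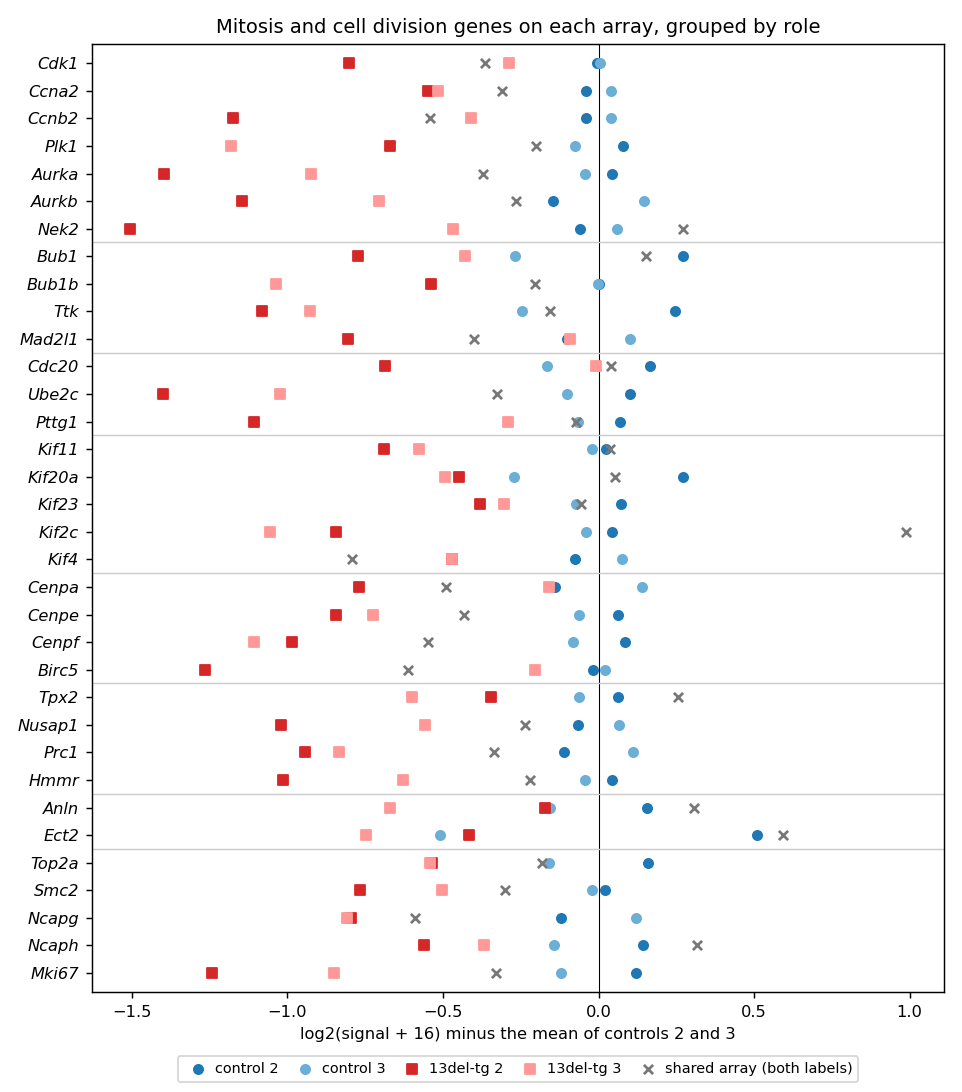
Points show log2(signal + 16) of each of the 34 genes on each array, minus the mean of controls 2 and 3, in rows grouped by role; circles are controls, squares 13del-tg and crosses the shared array. The squares lie left of the circles in 31 rows, while the crosses run from -0.79 (Kif4) to 0.99 (Kif2c).

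The count of 22 rested in part on the arrays used and on scaling. It was 11 without control 2 (5.27% of all genes), 13 without control 3 (2.64%), 11 without 13del-tg 2 (5.47%) and 20 without 13del-tg 3 (4.16%). With the shared array as a control only it was 21, against 648 of 12859 genes. With that array as 13del-tg only it was 15, against 534 of 12859. Entered under both labels, which by itself shrinks every difference, it gave 13 (1.36%). After median centring the all-gene median was 0.11 in place of -0.07, a shift of 0.18, and the share of all genes with lower values went from 58.8% to 37.8%. The count of members then became 9, against 2.36% of all genes, and 21 members had both 13del-tg arrays below both controls, against 12.8%. The member median was -0.53 after centring. The alternatives that change the filter, the variance model or add a block keep each member's difference as it is. Under each of the others 34 of 34 genes were negative, the nearest to 0 being -0.0074 for Cdc20 without 13del-tg 2.

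The kinases and cyclins that start mitosis were the role with the lowest median, -0.93 over 7 measured genes, and all 7 had an unadjusted p under 0.05, against 5.31% of all genes. After centring this held for 3 of the 7, against 2.36% of all genes, and for 1 gene in each of the other roles except cytokinesis, which had 0. Aurka, the centrosome kinase Aurora A, had signals of 630.3 and 591.9 in the controls and 222.2 and 314.4 in 13del-tg. That was a difference of -1.16 (SE 0.26, limma adjusted p = 0.423) with no overlap, and the shared array was between the groups at 468.7. Cdk1, the kinase that drives entry into mitosis and the brightest of this role, had 2107 and 2122 against 1205 and 1730. Its difference was -0.54 (SE 0.23, limma adjusted p = 0.715), and both 13del-tg arrays were lower than both controls. Ccna2, the cyclin A2 gene, had the smallest standard error of all members, 0.19, with 1853 and 1963 in controls against 1300 and 1330 in 13del-tg. Ccnb2, a cyclin B gene, spread more in 13del-tg, where 821 and 1408 compare with 1822 and 1929 in controls. Plk1, the Polo kinase, was lower on 13del-tg 3 (220.2) than on 13del-tg 2 (320.2), the reverse of most members. Aurkb, the kinase of the chromosomal passenger complex, was at 52.6% of the control level and Nek2, a centrosome-splitting kinase, at 50.5%.

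Among the 4 spindle checkpoint genes the median was -0.69 and 2 had an unadjusted p under 0.05, against 5.31% of all genes. Ttk, the kinase MPS1 that starts the checkpoint signal, had 497.6 and 349.8 in controls and 188.6 and 211.9 in 13del-tg, a difference of -1.01 (SE 0.29, limma adjusted p = 0.614). The groups did not overlap, although the controls differed from each other by more than the 13del-tg arrays did. Bub1b, which encodes BubR1, an inhibitor of the anaphase-promoting complex, was alike in both controls, at 573.0 and 572.6, and lower in 13del-tg at 389.8 and 270.7. Mad2l1, the brightest gene of this role and the one that captures Cdc20, had 2030 and 2341 in controls and 1241 and 2043 in 13del-tg, so 13del-tg 3 lay above control 2. Its difference was -0.45 (SE 0.27, limma adjusted p = 0.723). The kinase gene Bub1 was at 65.9% of the control level.

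Of the anaphase-promoting complex and its targets, Ube2c had the largest difference of all members. It encodes the ubiquitin-conjugating enzyme that starts ubiquitin chains for this complex. Signals were 4237 and 3686 in the controls, 1489 and 1934 in 13del-tg and 3151 on the shared array. The difference was -1.21 (SE 0.21, limma adjusted p = 0.214), and either 13del-tg array had less than any of the others. Pttg1, which encodes securin, the guard of separase, had 5497 and 5003 against 2423 and 4281 and a difference of -0.70 (SE 0.28, limma adjusted p = 0.715). Cdc20, the activator that brings substrates to the complex, had 1932 and 1534 in controls and 1063 and 1713 in 13del-tg, which overlapped. Its second probe set above the filter had 1635 and 1639 against 999.1 and 1154, with no overlap.

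The core subunits of the same complex formed a separate list, and their values lay around 0. All 12 measured core subunits had an unadjusted p above 0.05, 8 were positive and the median was 0.02, which became 0.21 after centring (10 positive) and 0.0032 with quantile normalization (6 positive). Anapc5, a scaffold subunit, had 13771 and 13022 in controls and 14066 and 13410 in 13del-tg, so the groups interleaved. Among 14 genes of the complex and its partners, those with the smallest p were Ube2s, the chain-extending enzyme, at -0.60 (SE 0.24, limma adjusted p = 0.715), and Anapc7 at -0.40 (SE 0.22, limma adjusted p = 0.717). Signals were 4480 and 6707 against 3264 and 4005 for Ube2s and 2147 and 2464 against 1497 and 2009 for Anapc7.

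The 5 kinesin motors had a median of -0.47, with 2 at an unadjusted p under 0.05, against 5.31% of all genes. Kif2c, a microtubule-depolymerizing motor at kinetochores, had 284.7 and 267.8 in controls and 146.6 and 124.5 in 13del-tg, a difference of -0.95 (SE 0.29, limma adjusted p = 0.641). The shared array stood apart at 563.1, above every other array, but on the gene's other probe sets above the filter it was at 194.5 and 167.3, no higher than the higher control. Kif23, a motor of centralspindlin at the midzone and the brightest kinesin gene here, had 549.8 and 495.9 against 397.5 and 420.0, with a difference of -0.34 (SE 0.23, limma adjusted p = 0.731). It had the smallest difference of all members, and its groups did not overlap. Kif11, the motor that pushes spindle poles apart, was at 64.5% of the control level, and Kif20a and Kif4, motors of the midzone and of chromosome arms, were at 72.2% and 72.1%.

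At centromeres and kinetochores the median of 4 genes was -0.76. Cenpf, a large kinetochore protein that is a usual marker of late-cycle cells, had 1183 and 1052 in controls, 555.6 and 509.0 in 13del-tg and 757.6 on the shared array. The difference was -1.05 (SE 0.21, limma adjusted p = 0.345), and on this probe set the gap between the groups was wider than the spread within either. A far dimmer probe set of Cenpf above the filter overlapped, with 100.3 and 66.8 against 95.3 and 61.5, and the mean of both gave -0.56 (unadjusted p = 0.0678 by limma). Birc5, which encodes survivin of the passenger complex, was the brightest of the role, with 2757 and 2833 against 1154 and 2425, a difference of -0.73 (SE 0.34, limma adjusted p = 0.715) that came mostly from 13del-tg 2. The motor gene Cenpe was at 58.0% and Cenpa, the centromeric histone H3 variant, at 72.4% of the control level.

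Proteins that bind spindle and midzone microtubules had a median of -0.81 over 4 genes. Of these 3 had an unadjusted p under 0.05, against 5.31% of all genes. Prc1, which crosslinks midzone microtubules, had 843.2 and 984.3 in controls and 466.5 and 504.4 in 13del-tg, a difference of -0.89 (SE 0.22, limma adjusted p = 0.509) with no overlap. Nusap1, a spindle-stabilizing protein and the brightest here, had 1966 and 2159 against 1006 and 1393 and a difference of -0.79 (SE 0.23, limma adjusted p = 0.614). Hmmr and Tpx2, which act in spindle assembly, were at 56.6% and 72.1% of the control level. For cytokinesis neither gene had an unadjusted p under 0.05. Anln, the contractile ring scaffold anillin, had 822.3 and 659.3 against 651.9 and 456.3 and a difference of -0.42 (SE 0.26, limma adjusted p = 0.725). Ect2, the exchange factor that switches on RhoA for furrowing, had 360.7 and 170.1 against 182.3 and 141.6, so control 3 lay below 13del-tg 2.

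Mki67, the proliferation marker Ki-67 that coats mitotic chromosomes, had signals of 5637 and 4761 in the controls, 2182 and 2867 in 13del-tg and 4121 on the shared array. The difference was -1.05 (SE 0.21, limma adjusted p = 0.345), and 13del-tg had 48.4% of the control level. Top2a, the topoisomerase that untangles sister chromatids, had 2765 and 2213 against 1700.5 and 1693.5, at 68.8%. The condensin genes Smc2, Ncapg and Ncaph were at 64.4%, 57.3% and 72.5%. In each, both 13del-tg arrays were below both controls, against 26.3% of all genes.

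Complexes could be set against each other by adding subunits from the other lists. The 5 genes of condensin I, which compacts mitotic chromosomes, were all negative, with Smc4 at -0.44 (SE 0.21). Ncapd2 had 1008 and 1133 against 553.0 and 460.1, a difference of -1.06 (SE 0.22, limma adjusted p = 0.383). Of the subunits specific to condensin II, Ncapg2 had 684.9 and 703.2 in controls against 294.0 and 250.3 in 13del-tg, a difference of -1.31 (SE 0.24, limma adjusted p = 0.251), whereas Ncaph2 had 2074 and 2470 against 1829.5 and 2563 and a difference of -0.06 (SE 0.23), which turned positive after centring. The cohesin core, which holds sister chromatids and also works in cells that do not divide, ran from -0.29 (Rad21) to 0.12 (Smc1a) with a median of -0.16 that became 0.02 after centring, and none of its 5 genes had an unadjusted p under 0.05. The 4 genes of the chromosomal passenger complex were all negative, Cdca8 at -0.58 (SE 0.24) beside Aurkb and Birc5. Incenp, its scaffold, had 2566 and 2725 against 1380 and 2064 and a difference of -0.64 (SE 0.24, limma adjusted p = 0.715), or -0.35 when its probe sets were averaged. Differences between complexes were not tested.

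**Figure D3:**
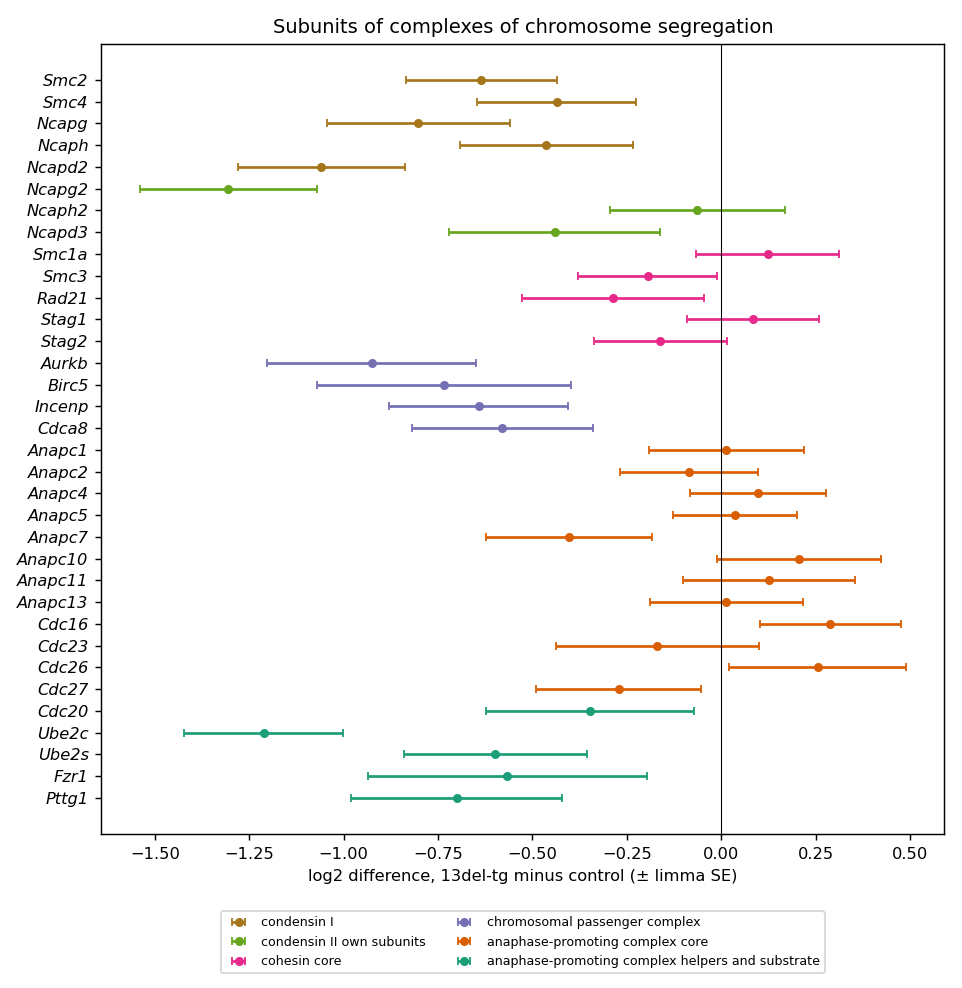
Log2 difference, 13del-tg minus control, with its limma standard error, for subunits of 6 complexes. Condensin I and passenger complex genes lie left of 0, as do Ube2c at -1.21 and Pttg1 at -0.70, while the 12 core subunits of the anaphase-promoting complex scatter around 0 with a median of 0.02.

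Other mitotic genes, grouped by function, had mostly lower values too. Over 103 measured genes of kinetochore, spindle, chromosome structure and cell cycle regulation, 95 were negative, against 58.8% of all genes, and the median was -0.48. At an unadjusted p under 0.05 there were 24 with lower values, against 5.31% of all genes, and 0 with higher, and none passed after adjustment by limma. The count of 24 became 14 without control 3, against 2.64% of all genes. After centring it became 13, against 2.36%, with 84 negative, against 37.8%. Of 32 kinetochore genes 30 were negative (median -0.39), and Ska1, of the complex that tracks microtubule ends, had 341.4 and 468.0 against 140.4 and 241.0 and a difference of -1.05 (SE 0.34, limma adjusted p = 0.686). Of 27 spindle, motor and cytokinesis genes 26 were negative (median -0.53), with Dlgap5, a spindle assembly factor, at 343.8 and 328.3 against 130.9 and 155.5 and a difference of -1.15 (SE 0.28, limma adjusted p = 0.508). The kinesin gene Kif18b had 428.4 and 461.4 against 214.6 and 229.6, a difference of -0.95 (SE 0.25, limma adjusted p = 0.545). In all 3 of these genes both 13del-tg arrays were below both controls, against 26.3% of all genes. Among 28 regulators 25 were negative (median -0.51). E2f8, an atypical E2F repressor made in S phase, had 932.9 and 708.2 in controls and 187.8 and 338.6 in 13del-tg, a difference of -1.62 (SE 0.33, limma adjusted p = 0.345). Cdc25b, the phosphatase that activates Cdk1, had 1165 and 1781 against 558.2 and 567.0. Its difference was -1.33 (SE 0.26, limma adjusted p = 0.321), or -1.63 without control 2, which left only the higher control.

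Genes of the earlier cycle were mixed. Of 8 cyclins and kinases of the G1 phase 7 were negative with a median of -0.43, and after centring 6 were, with a median of -0.25. Ccnd1, the cyclin D1 gene that responds to growth signals, had 2338 and 1845 in controls and 3481 and 2725 in 13del-tg. That was a difference of 0.56 (SE 0.22, limma adjusted p = 0.715), or 0.39 (unadjusted p = 0.11 by limma) when its probe sets were averaged. Ccnd3, the cyclin D3 gene, had 2318 and 3166 against 1969 and 1636 and a difference of -0.59 (SE 0.23, limma adjusted p = 0.715), but -0.12 (unadjusted p = 0.618 by limma) when its probe sets were averaged. Of 15 cell cycle inhibitors 7 were positive and 8 negative, with a median of -0.08, which after centring became 0.10 with 11 positive. Cdkn2b, which encodes the inhibitor p15 of cyclin D kinases, had the largest positive difference, 1.22 (SE 0.33, limma adjusted p = 0.573), from 155.3 and 252.7 in controls to 400.1 and 585.8 in 13del-tg. The antiproliferative gene Btg2 had 1456 and 1236 against 1005 and 573.1, a difference of -0.81 (SE 0.30, limma adjusted p = 0.715).

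**Figure D4:**
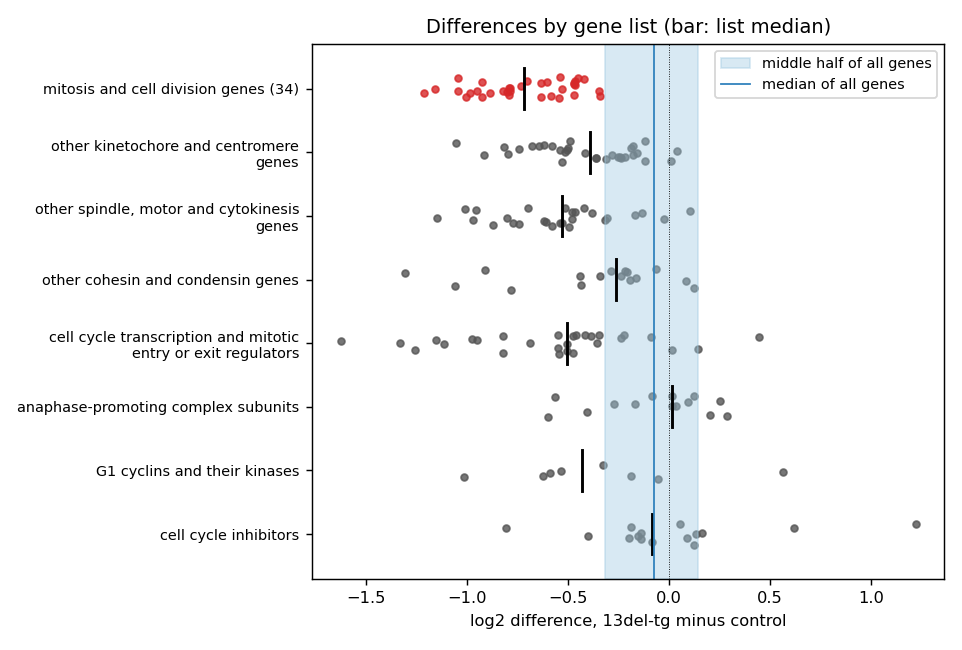
Each point is the log2 difference, 13del-tg minus control, of a gene; rows are the 34 mitosis and cell division genes and 7 other lists, black bars are list medians, and the blue band spans the quartiles of all 12859 genes. The median of the 34 genes (-0.72) lies below the lower quartile of all genes (-0.32), while the median of the anaphase-promoting complex list is 0.01, or -0.05 with quantile normalization.

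Further probe sets of the same genes gave a second reading on the same arrays. The members had 44 further probe sets, of which 27 in 19 genes were above the filter. These 27 had a median of -0.60. Of them 26 were lower in 13del-tg, where 58.8% of all genes were by their brightest probe set, and 1 was higher. The exception was for Cenpa, at 66.3 and 104.2 in controls and 64.2 and 173.4 in 13del-tg, a dim probe set beside the main one, and averaging both moved the Cenpa difference from -0.47 to -0.08. Of the 17 below the filter 12 were lower. The size of the difference did not follow brightness: across the 34 genes, which share the same arrays, Spearman's rho between the difference and the control level was 0.03. The 23 measured genes with a CHR match had a median difference of -0.79 and the 7 without one -0.73.

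Calvaria hold marrow, and in bulk tissue fewer cells of a type and less RNA per cell cannot be told apart. Markers of blood precursors were lower along with the mitotic genes. Of 10 measured erythroid markers of 12 listed, 9 were negative. In all 9 both 13del-tg arrays were below both controls, against 26.3% of all genes. The 10 markers had a median of -1.93. Their summed signal was 16960 to 19438 in controls, 5354 to 6501 in 13del-tg and 12288 on the shared array. All 9 measured B cell markers of 10 listed were negative, with a median of -1.55. Only 6 of the 9 had both 13del-tg arrays below both controls. The 9 summed to 9577 to 10217 against 2857 to 5768, and 8 remained negative after centring. The sum over the mitotic genes themselves was 45337 to 48133 in controls and 24461 to 32574 in 13del-tg, with 39599 on the shared array. Both marker sums were lower on 13del-tg 2 than on 13del-tg 3, as 23 of the 34 mitotic genes were. The order was not particular to them. Sums of neutrophil, megakaryocyte, osteoclast, macrophage, osteoblast and pineal markers were also lower on 13del-tg 2. Those of chondrocyte, endothelial and skeletal muscle markers were lower on 13del-tg 3.

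Sums of neutrophil markers differed from those of erythroid and B cell markers, because 13del-tg 3 was within the controls. Single mature markers varied. 13del-tg 3 was above both controls for S100a8 and S100a9, below both for Mmp8 and Lcn2, and within them for Camp, Ltf and Ngp. The 6 markers of neutrophil precursors summed to 3021 and 5921 in controls, 1160 on 13del-tg 2 and 5067 on 13del-tg 3, and the 7 measured of 8 mature neutrophil markers to 42209 and 59605, 18252 and 55827. The 5 megakaryocyte markers summed to 8163 to 8552 in controls and 3747 to 7724 in 13del-tg. Only 2 of the 5 had both 13del-tg arrays below both controls, against 26.3% of all genes. Chondrocyte markers, 9 of 9 negative with a median of -1.07, overlapped at 15884.5 to 31331 and 6973 to 16064. All 8 osteoclast markers were negative, with a median of -0.36, and 1 became positive after centring. In 5 of the 8 both 13del-tg arrays were below both controls, against 26.3% of all genes. Their sums, to which Ctsk and Acp5 contributed most, overlapped at 74353 to 85961 and 62883 to 76878. Macrophage markers summed to 24369 to 24688 against 21062 to 23059, sums to which Csf1r contributed most, while 3 of the 7 were positive. Their median of -0.04 became 0.14 after centring, with 5 positive, and 0.02 with quantile normalization. Osteoblast markers summed to 132352 to 149566 against 148428 to 170563, with a median of 0.15 that became -0.03 with quantile normalization. Endothelial markers, 5 in number, overlapped at 5923 to 6680 and 5122 to 6843. Skeletal muscle markers ranged from 17450 to 100683 in controls and 107652 to 139577 in 13del-tg, and the 9 pineal and photoreceptor markers from 5277 to 10973 and 448.9 to 473.5. On the shared array muscle markers summed to 124971, within the 13del-tg range, and pineal markers to 688.7, far below both controls. None of the measured markers was at 0 on any array. The part of these cell types in the lower mitotic signals was not tested.

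**Figure D5:**
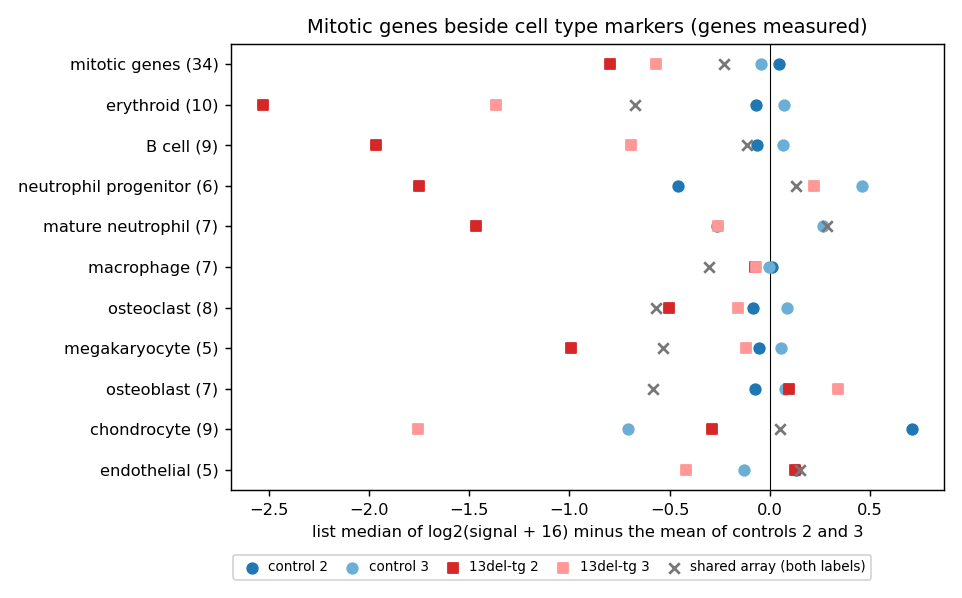
List medians of log2(signal + 16) on each array minus the mean of controls 2 and 3, for the 34 mitotic genes and 10 cell type marker lists (genes measured in brackets). Erythroid, B cell and mitotic medians are below both controls on both 13del-tg arrays, as are those of megakaryocyte, osteoclast and macrophage markers by smaller amounts on 13del-tg 3, whereas neutrophil precursor markers are below them on 13del-tg 2 alone.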

How the data were processed

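Biotin-labelled antisense RNA from cryosectioned parietal bones was hybridised to 1 array per sample, per the labels' protocols. The authors deposited linear intensities, and the submitters' processing notes name MAS5, whose version is not given in the sources used here. Low MAS5 signals are noisy on a log scale, hence a pseudocount of 16 and a filter: a probe set was kept if its mean log2(signal + 16), taken across 5 different arrays, reached the 40th percentile (6.28). Of 45037 non-control probe sets 34945 had 1 gene symbol, 932 several and 9160 none, and 34741 matched a RefSeq gene number. Genes were tested with limma 3.58.1 under R 4.3.3, with a variance trend, 2 arrays against 2, giving 2 residual and 5.01 prior degrees of freedom. P-values are two-sided and were adjusted by Benjamini and Hochberg's method across 12859 genes, with 0.05 as the threshold. Differences are 13del-tg minus control in log2(signal + 16), so folds of dim genes are understated. An exact two-sided permutation test of 2 against 2 cannot go below p = 0.333 and was not used. In 20 simulated sets of 12859 genes, with 200 changed, the test recovered 5.15% of true log2 changes of 1, 66.8% of changes of 2 and 95.2% of changes of 4. Noise was drawn independently for each gene from the variances fitted to these arrays, so shifts shared by many genes were not simulated. The members, gene lists and tests were chosen with earlier results of these data known. All measured members are named; values, standard error and adjusted p are given for the member with the smallest p and the brightest in each role, and for the 2 genes with the smallest p in each other list. Promoter sequences are from RefSeq (GRCm38.p6), the first entry of each gene. Tried alternatives were normalization, pseudocount, filter, probe set choice, variance model, left-out arrays, a replicate block and the use of the shared array. P-values measure only the spread between these arrays.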

Additional observations from a re-analysis of the deposited data

Results flagged for a closer look

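The shared array, which carries both genotype labels and entered no comparison, gave higher signals than both compared controls for 7 members. These were Kif2c at 563.1 (controls 284.7 and 267.8), Ncaph at 980.1 (866.0 and 708.3), Anln at 913.8 (822.3 and 659.3), Tpx2 at 659.2 (574.1 and 525.2), Nek2 at 380.8 (299.9 and 326.5), Ect2 at 383.7 (360.7 and 170.1) and Kif11 at 436.2 (432.0 and 418.3). For 22 of the 34 members it lay below both controls.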

How the results depend on the processing

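Under 16 of 17 alternatives 0 of 34 members passed after adjustment. The exception was the fit with the replicate number as a block, in which 13 members and 609 genes passed (2.63% of all genes with lower values) with 1 residual degree of freedom. The labels do not say that a number marks a litter or day. The deviations of same-numbered arrays had a correlation of 0.27 over genes, from only 2 pairs. Whether same-numbered arrays belong together was not tested. Of the 103 other mitotic genes 19 passed with the block, 1 without control 2 and 0 otherwise. Over all genes 8 passed, which became 30 with arrays centred on the median, 25 with robust eBayes, 3 with a pseudocount of 64, 2 with a pseudocount of 1, with quantile normalization or when filtering at the 60th percentile, and 1 unfiltered, without the trend or with the shared array as a control. With that array under both labels it was 0, when 175 genes were lower and 17 higher at an unadjusted p under 0.05 by limma. The member median of -0.72 became -0.53 with centring, -0.55 when the shared array joined 13del-tg alone and -0.48 when it joined both groups. The median of the 140 other cell cycle genes, -0.39, became -0.21, -0.25 and -0.26. The 22 members at an unadjusted p under 0.05, counted after seeing the data, became 9 with centring. With the shared array they became 21 as a control only, 15 as 13del-tg only and 13 under both labels. Leaving out 1 array, which leaves a lone array assumed to vary like the others, gave ranges of 1 to 232 for all genes past the threshold (232 without control 2), -0.80 to -0.57 and -0.44 to -0.29 for the medians, and 11 to 20 for the count of 22. Of the 48 named genes, those past the threshold in an alternative were 22 with the replicate block and 1, Cdc25b, without control 2. The number of arrays limits the precision, with standard errors of the members from 0.19 to 0.40.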
